A study of Mus musculus with 8 samples.

Results

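The genes described here are 8 complement components and regulators, C3, C4b, Cfb, Cfi, Serping1, Cd55, Cd59a and A2m, out of 53697 genes in a table of RNA counts from sorted mouse mammary tumor cells. They were chosen by symbol with the log2 differences of the same libraries known, both between Dll1+ and Dll1- cells and between reporters. Those values therefore entered the choice, and the 8 genes are described without p values. All 8 passed the filter on low counts, which left 18322 genes. The study asked how tumor cells that carry the Notch ligand Dll1 differ from tumor cells that do not.

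All 4 mice carried MMTV-PyMT, a transgene that drives the polyoma middle T oncogene in mammary epithelium from a viral promoter. Mice 1 and 2 were PyMT-Dll1GFP, with GFP knocked in at Dll1, and mice 3 and 4 were PyMT-Dll1mCh, whose mCherry reporter is BAC-based. Tumors were digested with collagenase and hyaluronidase, cells bearing CD45, CD31 or ter119 were removed, and the rest were sorted by reporter into a Dll1+ and a Dll1- library per mouse. The age of each mouse is not given in the sources used here, and a reporter sort separates cells by reporter protein, not by Dll1 RNA. Because each mouse had 1 reporter, the reporter and the mouse cannot be told apart.

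Complement is a cascade of plasma proteins, made mostly by the liver and also by epithelial cells, fibroblasts and macrophages. The classical and lectin pathways cleave C4 and C2, the alternative pathway uses factor B, and all routes converge on the cleavage of C3, which marks surfaces and leads to the membrane attack complex. Host cells hold the cascade back with soluble inhibitors such as C1 inhibitor and factor I and with membrane proteins such as CD55 and CD59. In mammary tumors complement is studied for its part in recruiting myeloid cells.

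Levels are given as CPM, the counts out of each 1 M of a library with TMM scaling, and differences on the log2 scale. Total counts ranged from 27301396 to 123907626 per library, and a floor of 3 counts corresponded to 0.0240 to 0.105 CPM, which covers counting error alone. The sorted label held in the RNA: Dll1 was at 7.61, 13.7, 34.8 and 50.3 CPM in the Dll1- libraries of mice 1 to 4 and at 87.5, 138, 203 and 250 CPM in the Dll1+ libraries. Epcam, an epithelial adhesion protein, was at 899 to 1240 CPM in every library. Ptprc, which encodes CD45, was at 2.88 to 12.7 CPM, and Pecam1, which encodes CD31, at 13.7 to 98.2 CPM. RNA of these markers of the cells that the sort removes was thus present in every library, and its source was not tested. In the Dll1- library of mouse 4, Pecam1 at 98.2 CPM was above Cd55, Cd59a and A2m, at 56.8, 31.6 and 19.6 CPM. Summed CPM of 10 fibroblast markers was 1248 to 1461 in the 4 PyMT-Dll1GFP libraries, 8412 and 24117 in the Dll1- libraries of mice 3 and 4, and 3695 and 3835 in their Dll1+ libraries. The Dll1- library of mouse 4 thus stood apart, and results that rest on mouse 4 are given with and without it.

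To place the genes on a common scale, CPM was divided by the length of merged exons in kilobases. C4b was the most abundant, at 76.6 ± 29.4 CPM per kb (mean ± SD, n = 8 libraries), followed by Serping1 at 55.5 ± 96.1, C3 at 39.8 ± 49.7, Cd59a at 17.8 ± 5.74, Cd55 at 17.7 ± 5.74, Cfb at 14.9 ± 9.63 and A2m at 5.79 ± 3.18 CPM per kb. Cfi was lowest at 0.223 ± 0.171 CPM per kb. C4b exceeded Serping1 in 7 of 8 libraries, but Serping1 exceeded C3 in 3 of 8 and C3 exceeded Cd59a in 3 of 8, so that these neighbours were not ordered beyond their spread. Cd59a was above Cd55 in 3 of 8 libraries and Cd55 above Cfb in 6 of 8. A2m was above Cfi in all 8.

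**Figure D1:**
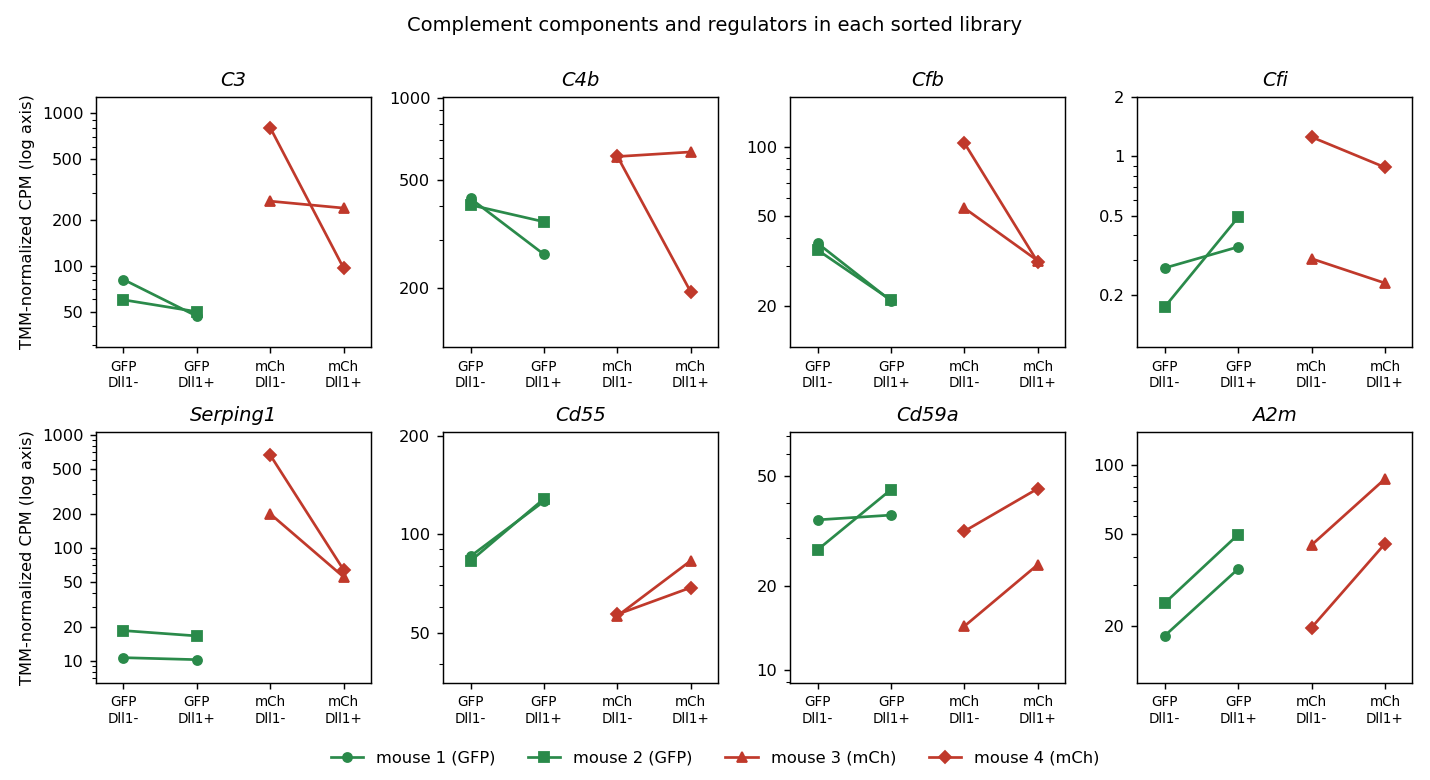
TMM-normalized CPM (log axis, with its own range in each panel) of the 8 genes in each library; lines join the Dll1- and Dll1+ libraries of a mouse, green for PyMT-Dll1GFP and red for PyMT-Dll1mCh. A2m and Cd55 slope upward in all 4 mice, Cfb slopes downward in all 4, and Serping1 is highest in the Dll1- library of mouse 4 at 660 CPM.

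For 3 of the 8 genes a RefSeq promoter window was at hand (GRCm38.p6), and the 250 bases before the annotated start are shown because C3 differed from Cd55 and Cd59a in the direction between Dll1+ and Dll1- cells. The capitals mark a match to the interferon-stimulated response element letters GAAANNGAA.
C3, minus strand, chr17:57228137-57228386: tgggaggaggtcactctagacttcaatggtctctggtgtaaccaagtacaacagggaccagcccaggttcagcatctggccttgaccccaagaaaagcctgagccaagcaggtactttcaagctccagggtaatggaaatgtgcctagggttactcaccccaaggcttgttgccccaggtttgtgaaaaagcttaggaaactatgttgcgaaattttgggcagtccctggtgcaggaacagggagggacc
Cd55, minus strand, chr1:130462745-130462994: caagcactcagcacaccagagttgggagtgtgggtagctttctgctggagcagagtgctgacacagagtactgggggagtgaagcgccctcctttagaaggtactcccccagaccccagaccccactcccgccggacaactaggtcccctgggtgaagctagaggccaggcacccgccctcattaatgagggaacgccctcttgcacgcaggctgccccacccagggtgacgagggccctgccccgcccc
Cd59a, plus strand, chr2:104095551-104095800: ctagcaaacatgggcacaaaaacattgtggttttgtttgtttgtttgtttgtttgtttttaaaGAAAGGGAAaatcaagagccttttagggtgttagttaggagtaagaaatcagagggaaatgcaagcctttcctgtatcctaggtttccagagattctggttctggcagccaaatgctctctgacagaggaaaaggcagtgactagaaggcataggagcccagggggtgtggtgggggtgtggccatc

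These windows were 52.0% G and C for C3, 64.0% for Cd55 and 44.8% for Cd59a. They were searched on both strands for 4 sets of letters: TGGGAA, bound by the Notch effector RBPJ; TTCNNNGAA, bound by STAT factors; GAAANNGAA; and GGGNNTTTC, a kappa B form. The single match was GAAANNGAA in Cd59a, 187 bases before the start on the gene's own strand. Over all 32851 windows of the same length, TGGGAA was present in 21.6%, TTCNNNGAA in 7.02%, GAAANNGAA in 7.13% and GGGNNTTTC in 3.72%. The letters are a description of the windows and were not tied to any measured value.

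C3, the component on which all pathways converge (GRCm38 chr17:57203970-57228136, minus strand), was at 81.1 and 46.6 CPM in the Dll1- and Dll1+ libraries of mouse 1. In mouse 2 it was at 59.7 and 49.9 CPM, in mouse 3 at 264 and 238 CPM, and in mouse 4 at 801 and 96.1 CPM. The Dll1+ library was the lower in all 4 mice, but the groups overlapped, since mouse 3 had more C3 in its Dll1+ cells than mice 1 and 2 had in either population. The paired differences of -0.80, -0.26, -0.15 and -3.06 show that mouse 4 carried most of the mean. The fitted difference over 4 mice was -1.01 (SE 0.55), and -0.40 without mouse 4.

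C4b, the mouse C4 of the classical and lectin pathways (chr17:34728380-34743882, minus strand), varied less between libraries than C3. Its level was 426 and 265 CPM in the Dll1- and Dll1+ libraries of mouse 1, 403 and 350 CPM in mouse 2, 609 and 633 CPM in mouse 3, and 610 and 193 CPM in mouse 4. Mice 3 and 4 had nearly the same level in Dll1- cells and the highest and lowest of all 8 libraries in Dll1+ cells. The fitted difference was -0.62 (SE 0.30) over 4 mice and -0.28 without mouse 4. In PyMT-Dll1mCh mice alone it was -0.80 (SE 0.49) and moved to 0.03 without mouse 4. C4a, the near-identical neighbour of C4b, had the second-most similar pattern over the libraries, and reads could be divided between the 2 genes.

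Cfb, factor B, supplies the protease of the alternative pathway convertase (chr17:34856374-34862518, minus strand). It was at 37.9 and 21.1 CPM in the Dll1- and Dll1+ libraries of mouse 1, at 35.4 and 21.3 CPM in mouse 2, at 54.0 and 31.7 CPM in mouse 3, and at 104 and 31.2 CPM in mouse 4. Every Dll1+ library was below every Dll1- library, which held for none of the other 7 genes and for 3.33% of all tested genes. The differences were -0.84, -0.73, -0.77 and -1.74, with a fitted value of -1.02 (SE 0.19), 2.03-fold lower, and -0.78 without mouse 4. Cfb shares 2246 exon bases with Gm20547 on the same strand, to which 55 counts were assigned over the 8 libraries.

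**Figure D2:**
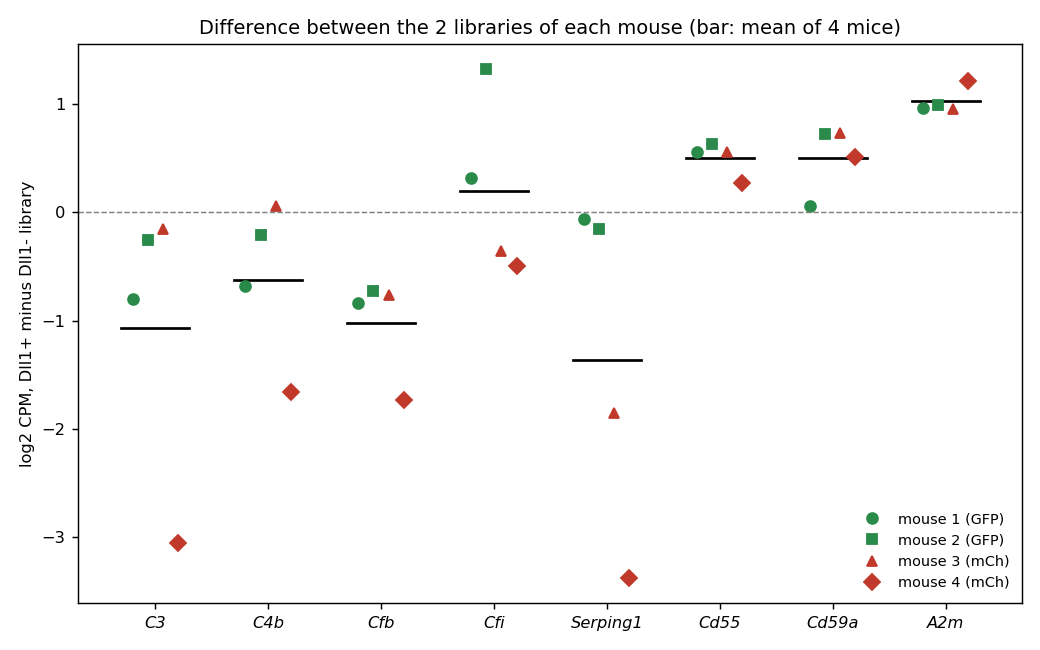
Dll1+ minus Dll1- log2 CPM within each mouse (y axis) for the 8 genes (x axis); points are mice, and the bar is their mean. The 4 points of A2m lie between 0.95 and 1.21, whereas those of C3 spread from -3.06 to -0.15.

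Cfi, factor I, the plasma protease that cleaves C3b and C4b together with cofactors (chr3:129835884-129875332, plus strand), was barely detected. It had 8 and 10 counts in the Dll1- and Dll1+ libraries of mouse 1, 5 and 22 in mouse 2, 38 and 15 in mouse 3, and 38 and 49 in mouse 4. As CPM the range was 0.173 to 1.26. Dll1+ cells were higher in both PyMT-Dll1GFP mice, by 0.31 and 1.32, and lower in both PyMT-Dll1mCh mice, by -0.36 and -0.49. The fitted difference of 0.09 (SE 0.39) over 4 mice turned to -0.27 without mouse 2, so no direction was detectable at this depth.

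Serping1 encodes C1 inhibitor, the serpin that blocks C1r, C1s and the lectin pathway proteases (chr2:84765387-84775444, minus strand). In PyMT-Dll1GFP mice it was at 10.6 and 10.2 CPM in the Dll1- and Dll1+ libraries of mouse 1 and at 18.5 and 16.6 CPM in mouse 2. In PyMT-Dll1mCh mice it was at 199 and 55.0 CPM in mouse 3 and at 660 and 63.5 CPM in mouse 4. No PyMT-Dll1GFP library reached the lowest PyMT-Dll1mCh library, and how many of all tested genes showed such a gap was not counted. Between reporters, 18.7% of tested genes passed the threshold as higher in PyMT-Dll1mCh mice in Dll1- cells, and 15.2% in Dll1+ cells. The difference between Dll1+ and Dll1- cells was -0.11 (SE 0.45) in PyMT-Dll1GFP mice and -2.62 (SE 0.43) in PyMT-Dll1mCh mice, 6.13-fold lower, and -1.88 in mouse 3 without mouse 4. Over 4 mice the fit gave -1.42 (SE 0.66), a mean of unlike values.

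The fibroblast markers moved beside Serping1. Their summed CPM differed between Dll1+ and Dll1- libraries by -0.11, -0.14, -1.19 and -2.65 on the log2 scale in mice 1 to 4, where Serping1 differed by -0.06, -0.16, -1.85 and -3.38. None of the 10 fibroblast, 10 endothelial, 10 macrophage and 8 pericyte markers was at 0 in any library. Over the same mice the summed pericyte markers differed by -0.07, 0.26, -1.33 and -1.82, the endothelial markers by 0.07, -0.12, -0.82 and -2.01, and the macrophage markers by 0.10, 0.22, -1.15 and -1.14. The part of these cell types in the results for Serping1, C3, C4b and Cfb was not tested. In bulk RNA, fewer cells of a type and less RNA per cell cannot be told apart.

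**Figure D3:**
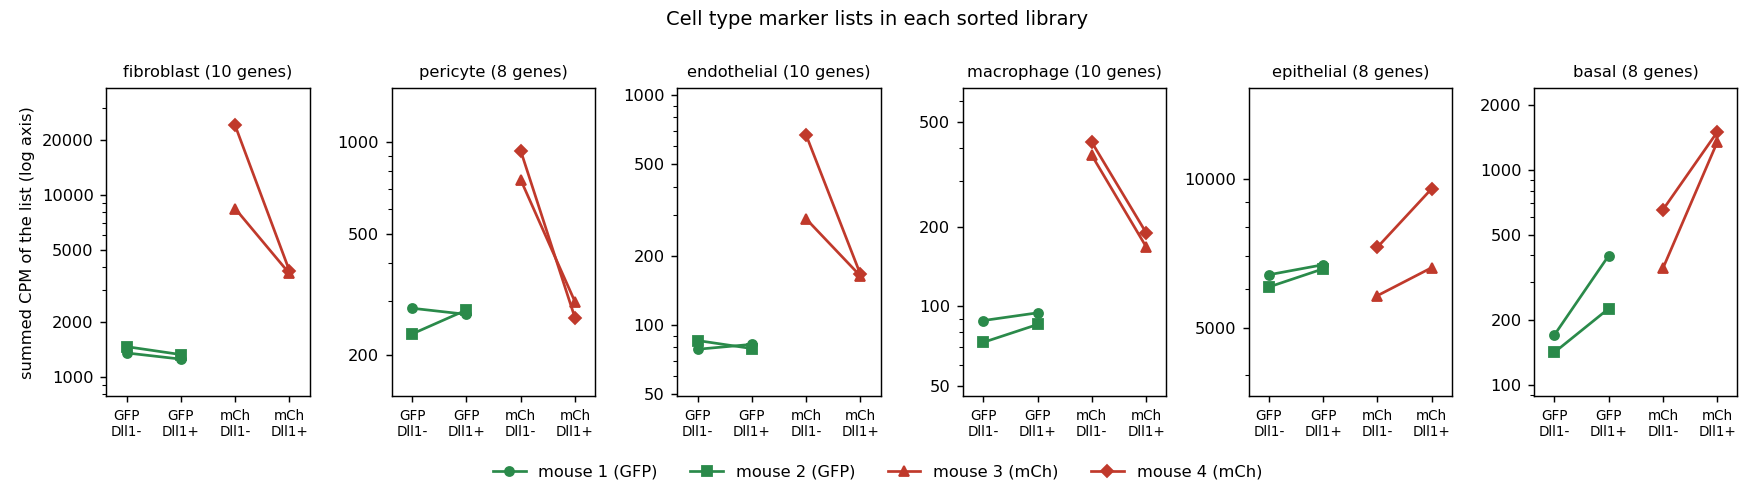
Summed CPM (log axis, with its own range in each panel) of 6 marker lists per library, with lines joining the libraries of a mouse. In mCh mice the fibroblast, pericyte, endothelial and macrophage sums are lower in Dll1+ than in Dll1- cells, and in GFP mice the fibroblast sum stays between 1248 and 1461; basal markers slope upward in all 4 mice.

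Cd55 encodes decay-accelerating factor, a membrane protein that breaks up C3 convertases (chr1:130439027-130462744, minus strand). Its level was 85.6 and 126 CPM in the Dll1- and Dll1+ libraries of mouse 1, 82.8 and 128 CPM in mouse 2, 56.2 and 82.9 CPM in mouse 3, and 56.8 and 68.6 CPM in mouse 4. The Dll1+ library was higher in each mouse, by 0.56, 0.63, 0.56 and 0.27, whereas across mice the groups overlapped because both PyMT-Dll1mCh mice were lower throughout. The fitted difference was 0.51 (SE 0.07) over 4 mice, 1.42-fold, with 0.59 (SE 0.09) in PyMT-Dll1GFP and 0.42 (SE 0.09) in PyMT-Dll1mCh mice. Its antisense neighbour Gm16083 shares 102 exon bases and had 23 counts over the 8 libraries. The paralog Cd55b, with which reads could be divided, was at 0.136 to 0.593 CPM and did not pass the filter.

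Cd59a, which keeps the membrane attack complex from forming (chr2:104095801-104115354, plus strand), was at 34.8 and 36.2 CPM in the Dll1- and Dll1+ libraries of mouse 1. It was at 27.1 and 44.7 CPM in mouse 2, at 14.4 and 24.0 CPM in mouse 3, and at 31.6 and 45.1 CPM in mouse 4. Mouse 1 hardly differed between its libraries, at 0.06, while the other mice differed by 0.72, 0.74 and 0.51. The fitted difference was 0.51 (SE 0.13) over 4 mice, 1.42-fold. Its paralog Cd59b was at 9.90 to 22.4 CPM and had a fitted difference of -0.48 (SE 0.14; adjusted p = 0.0718, edgeR quasi-likelihood test), opposite in sign to Cd59a.

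A2m encodes alpha-2-macroglobulin, a broad protease trap from the same protein family as C3 and C4 (chr6:121635376-121679227, plus strand). It was at 18.1 and 35.3 CPM in the Dll1- and Dll1+ libraries of mouse 1, at 25.1 and 49.8 CPM in mouse 2, at 44.9 and 87.0 CPM in mouse 3, and at 19.6 and 45.5 CPM in mouse 4. The level in Dll1- cells varied between mice, but the difference to Dll1+ cells was 0.96, 0.99, 0.95 and 1.21, the tightest of the 8 genes relative to its size. The fitted difference was 1.03 (SE 0.07), 2.04-fold, and 0.97 without mouse 4. The 8 basal epithelial markers also differed in this direction, with summed log2 differences of 1.22, 0.68, 1.95 and 1.20 in mice 1 to 4, and their part in the result for A2m was not tested.

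Counted together, 3 of the 8 genes were past the threshold as higher in Dll1+ cells over 4 mice (Cd55, Cd59a and A2m), beside 6.98% of all tested genes, and 1 as lower (Cfb), beside 7.04%. In PyMT-Dll1GFP mice 2 were higher (Cd55 and A2m), beside 4.29% of tested genes, and 0 were lower, beside 4.84%. In PyMT-Dll1mCh mice 2 were higher (Cd55 and A2m), beside 5.51%, and 2 lower (Cfb and Serping1), beside 6.25%. Nothing is read from these counts, since the genes were chosen with the contrasts known. The effect in PyMT-Dll1GFP mice minus that in PyMT-Dll1mCh mice passed the threshold for none of the 8 in edgeR with all 4 mice. Of tested genes, 0.0655% passed there with a positive and 0.00546% with a negative difference. That result did not hold in every fit with a mouse left out. In DESeq2 the difference passed for Serping1, beside 2.29% of tested genes with a positive and 0.66% with a negative difference. In edgeR it was 2.50 (SE 0.62) for Serping1, 0.47 (SE 0.35) for Cfb, 0.18 (SE 0.13) for Cd55 and -0.10 (SE 0.14) for A2m. Over 9 alternative fits it ran from 1.78 to 3.29 for Serping1, from 0.02 to 0.99 for Cfb, from 0.07 to 0.35 for Cd55 and from -0.20 to 0.06 for A2m.

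The comparison of reporters within Dll1- cells gave the largest values of Serping1 and C3 among the contrasts fitted. Serping1 was 29.5-fold higher in PyMT-Dll1mCh than PyMT-Dll1GFP mice (log2 4.88, SE 0.65), C3 was 7.57-fold higher (2.92, SE 0.62) and Cfb 2.16-fold higher (1.11, SE 0.28). Cd55 was 1.49-fold lower (-0.57, SE 0.11). Thus 3 of the 8 were past the threshold as higher, beside 18.7% of tested genes, and 1 as lower, beside 17.9%. Without the Dll1- library of mouse 4, the difference was 3.82 for Serping1, 1.96 for C3, 0.61 for Cfb and -0.54 for Cd55.

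In Dll1+ cells the contrast of reporters was smaller for Serping1, at 2.14 (SE 0.58), 4.40-fold higher in PyMT-Dll1mCh mice, and for C3, at 1.79 (SE 0.59). For C3 that order rested on mouse 4. Cd55 was again lower, at -0.75 (SE 0.11), 1.68-fold. Of the 8 genes, 1 was past the threshold as higher (Serping1), beside 15.2% of tested genes, and 1 as lower (Cd55), beside 15.4%. Without the Dll1+ library of mouse 4 the difference was 2.02 for Serping1, 2.30 for C3 and -0.63 for Cd55, so that without mouse 4 the value for C3 was larger in Dll1+ than in Dll1- cells. C4b, Cfi, Cd59a and A2m passed the threshold in neither population. In the 4 Dll1- libraries the summed fibroblast markers were highest in mice 4 and 3, as were C3, C4b, Cfb, Cfi and Serping1. Cd55, Cd59a and A2m did not have this order, and C4b was nearly equal in mice 4 and 3, at 610 and 609 CPM. How many of all tested genes had this order was not counted, so nothing is read from it. The part of the fibroblast markers was not tested.

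**Figure D4:**
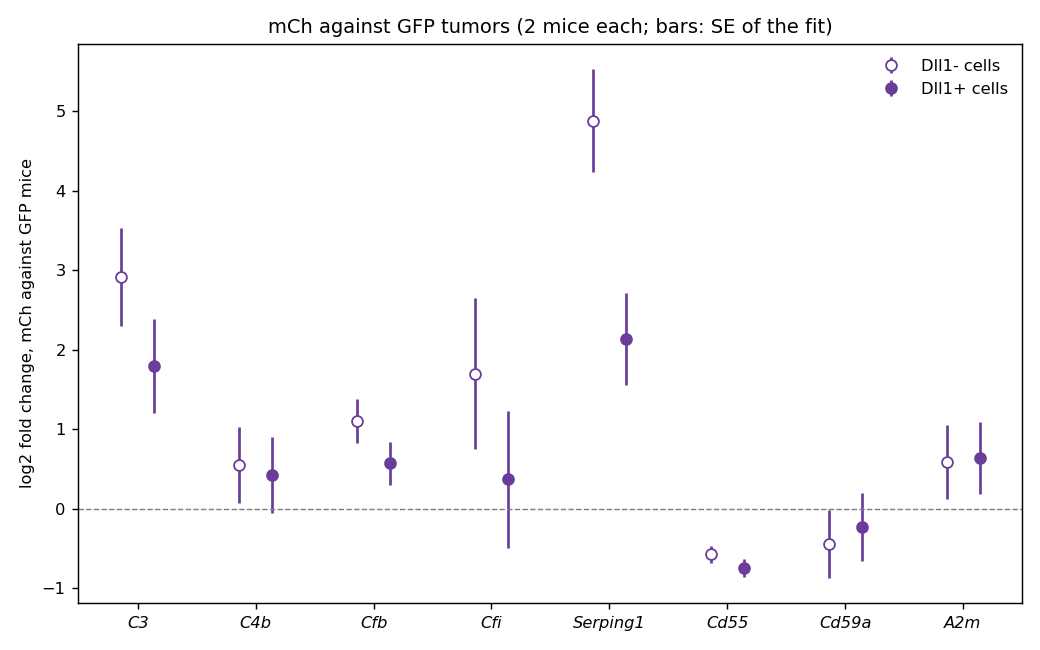
Fitted log2 fold change of PyMT-Dll1mCh against PyMT-Dll1GFP mice (y axis; 2 mice each; bars are the SE) for the 8 genes (x axis), in Dll1- cells (open) and Dll1+ cells (filled). Serping1 lies at 4.88 and 2.14, and Cd55 lies below 0 in both.

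The rest of the pathway was taken from a list of 46 other complement genes, of which 28 passed the filter. Over 4 mice 2 of the 28 rose in Dll1+ cells, beside 6.98% of all tested genes, and 1 fell, beside 7.04%. Neither share of the list stood above that of all genes by as much as 1 gene. The median log2 difference was -0.67, against 0.00 over all tested genes. C9, the pore-forming subunit of the membrane attack complex, rose by 1.44 (SE 0.18; adjusted p = 0.00917, edgeR quasi-likelihood test), from 1.67, 1.32, 0.472 and 1.65 CPM in the Dll1- libraries of mice 1 to 4 to 4.60, 2.89, 1.37 and 5.11 CPM in their Dll1+ libraries. C5ar2, a receptor for C5a, rose by 1.18 (SE 0.16; adjusted p = 0.0111, edgeR), from 6.96, 9.32, 3.16 and 4.06 to 21.5, 23.6, 6.10 and 7.14 CPM. The Dll1+ library was the higher in 4 of 4 mice for each. C1s2, a copy of the C1s protease gene at 0.697 to 10.9 CPM, fell by 1.55 on the log2 scale (adjusted p = 0.0386, edgeR). Of the list, 12 genes had an unadjusted p under 0.05. The share of all tested genes under that unadjusted cutoff is not given, here or below, so nothing is read from such counts. The number past the adjusted threshold was 1 without mouse 1, none of the 3 named, and 0 without mouse 3, where 7 had an unadjusted p under 0.05. C1s2 did not pass without mouse 2 either (adjusted p = 0.0599, edgeR).

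In PyMT-Dll1GFP mice 2 of the 28 rose (C5ar2 and C9), beside 4.29% of tested genes, and 1 fell (Susd4, a membrane-linked inhibitor of the cascade, by 1.41 on the log2 scale), beside 4.84%. The median was 0.090, against -0.01 over all tested genes. With either PyMT-Dll1GFP mouse left out, which assumes that the remaining mouse varied like the others, 0 passed in edgeR, with 6 genes at an unadjusted p under 0.05 without mouse 1 and 5 without mouse 2. In PyMT-Dll1mCh mice 3 rose, beside 5.51% of tested genes, and 14 fell, beside 6.25%, with a median of -1.19, against 0.02 over all tested genes. None of these 17 passed when that reporter was fitted alone, where 0 of all genes tested passed in edgeR. The filter was rerun for that fit, and 27 of the 36 listed genes it kept had an unadjusted p under 0.05. Without the mouse in the model, 4 of the 17 passed, all lower. The 3 were C9, C5ar2 and Clu, which encodes clusterin, an inhibitor of the terminal pathway and at 424 to 779 CPM the highest CPM of the list. Those that fell held 6 genes of the classical and lectin pathways, C1qa, C1qb and C1qc (C1q subunits), C1s1, C1s2 and the ficolin gene Fcna, with Cfp (properdin), Hc (which encodes C5), Vtn (vitronectin), the receptors C3ar1 and C5ar1, and the integrin chains Itgam, Itgax and Itgb2. Their log2 differences ran from -3.25 for Vtn to -0.93 for Cfp. Without mouse 4, 8 genes of the list passed, all lower, of which 6 were among the 17, so that the 3 that rose no longer passed. Several of these genes are widely used as macrophage genes. The summed macrophage markers differed in the same direction in mice 3 and 4, as did the fibroblast, pericyte and endothelial sums given above. The part of any of these cell types in the genes that fell was not tested.

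The effect in PyMT-Dll1GFP mice minus that in PyMT-Dll1mCh mice passed the threshold for 0 of the 28 in edgeR, where 17 had an unadjusted p under 0.05. It passed for 9 in DESeq2, beside 2.95% of all tested genes. Its median over the 28 was 1.25, against -0.05 over all tested genes. Without mouse 3, 7 of the list passed in edgeR, beside 4.04% of all genes tested, and without mouse 4, 2 passed, beside 0.31%.

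**Figure D5:**
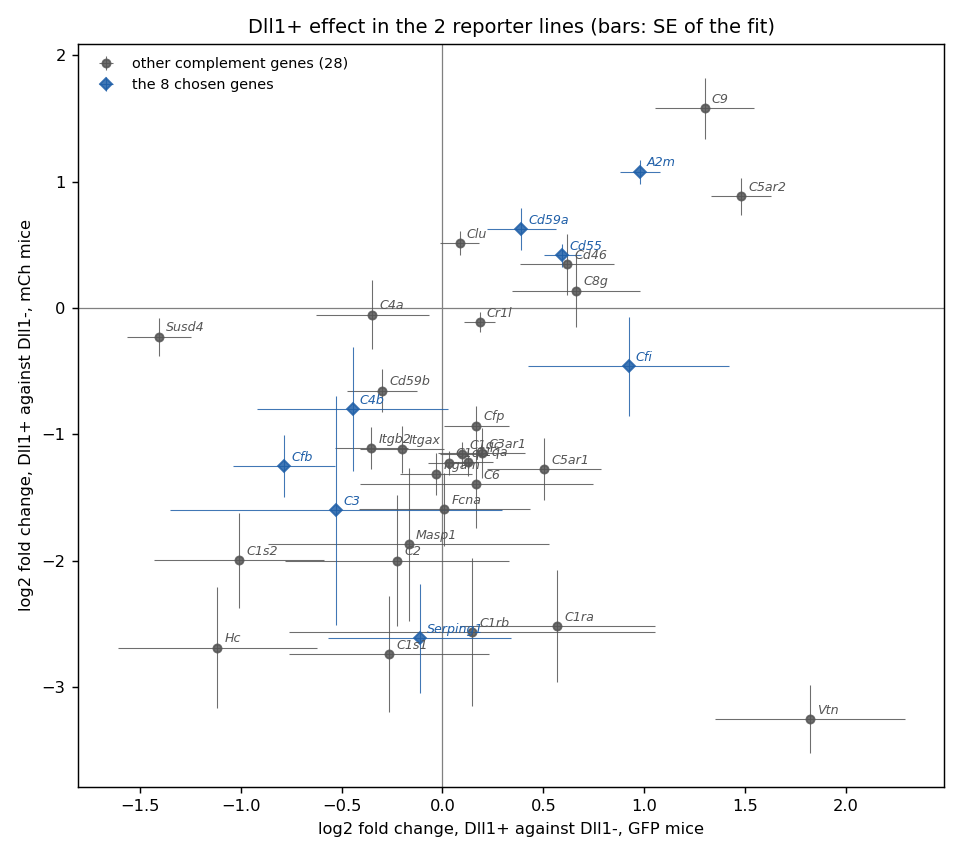
Fitted log2 fold change of Dll1+ against Dll1- cells in GFP mice (x axis) and in mCh mice (y axis), with SE bars, for the 8 chosen genes (blue diamonds) and the 28 other complement genes tested (grey). C9, C5ar2 and A2m are above 0 on both axes.

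Between reporters, Dll1- cells of PyMT-Dll1mCh mice were higher for 18 of the 28, beside 18.7% of tested genes, and lower for 2, beside 17.9%, with a median of 2.14, against 0.01 over all tested genes. The 18 included 10 of the 11 tested genes of the classical and lectin pathways. Among them were C1ra at 22.7-fold, C1s1 at 19.3-fold, C2 and Masp1. The terminal component C6 was also higher, as was Vtn at 6.75 (SE 0.55) on the log2 scale. Beside the floor of 3 counts, Vtn had 2 and 5 in the Dll1- libraries of mice 1 and 2, and C6 had 3 and 4. C2, C6 and C1s2 did not pass without the Dll1- library of mouse 1 or of mouse 2. Cfp and Fcna did not pass without that of mouse 1, nor C1rb and C3ar1 without that of mouse 2. Without the Dll1- library of mouse 4 the difference was 10.7-fold for C1ra. On the log2 scale it was then 3.32 for C1s1, against 4.27 with that library, and 6.24 for Vtn, and all 3 genes still passed. The 2 were C5ar2, 2.27-fold lower, and Cd46, a membrane cofactor for factor I, 2.26-fold lower, which did not pass without the Dll1- library of mouse 1 or of mouse 2. In Dll1+ cells 6 of the 28 were higher (C1qa, C1qb, C1qc, Vtn, Itgax and Itgb2), beside 15.2% of tested genes, and the same 2 lower, beside 15.4%, with a median of 0.95, against 0.07. Vtn did not pass there with any 1 library left out, and 4 of these 8 genes passed without the Dll1+ library of mouse 2. The genes of the list with the highest mean CPM that passed in no comparison were Cr1l, the rodent membrane regulator Crry, at 49.5 to 61.2 CPM, with Cd59b and C4a, the latter at 7.95 to 19.7 CPM.

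Of 4 other genes of the alpha-2-macroglobulin family, 2 passed the filter. Mug1, a murinoglobulin gene related to A2m, rose by 2.18 in Dll1+ cells over 4 mice (SE 0.39; adjusted p = 0.0220, edgeR) but was at 0 to 1.82 CPM, with no count in the Dll1- library of mouse 4, and did not pass without mouse 1 (adjusted p = 0.0869) or mouse 2 (adjusted p = 0.0525). Cd109, a membrane-anchored member, was at 1.39 to 25.7 CPM and fell by 1.28 on the log2 scale in PyMT-Dll1mCh mice (adjusted p = 0.0456, edgeR), with a difference of -0.88 without mouse 4 (adjusted p = 0.224). It was 10.5-fold higher in PyMT-Dll1mCh than PyMT-Dll1GFP mice in Dll1- cells, and 6.43-fold higher without the Dll1- library of mouse 4. Pzp and Mug2 had no counts.

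For each of the 8 genes the most similar pattern over the 8 libraries was sought among the 14906 tested genes that averaged 1 CPM or more, as the smallest mean absolute difference of log2 CPM after each gene was centred. Cd55 had the closest neighbours, Gm49037 at 0.05, Gk at 0.06 and Trim21 at 0.07. Serping1 was followed by Srpx at 0.12, Mmp3 at 0.16 and Ces2g at 0.17, and Cd59a by Arrb1 at 0.10, Amd2 at 0.11 and Gdf5 at 0.11. The nearest genes were Hsd11b1, Ank2 and Pcdh7 for C3, Tbc1d16, C4a and Lmo2 for C4b, and Castor2, Steap3 and Lama4 for Cfb, all at 0.17 to 0.23. Cfi was nearest to Gulp1, Cdkn2b and Akap12 at 0.18 to 0.22, and A2m to Chrm1, Gm4316 and Otoa at 0.18 to 0.25. Among the 8 genes themselves the closest pair was Cd55 and Cd59a at 0.38, and the farthest was Serping1 and Cd55 at 2.05.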

How the data were processed

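Reads of 8 libraries were mapped by the authors with salmon to mouse transcripts (GENCODE M20; GRCm38.p6 per the labels) and summed to genes with tximport; the deposited values are estimated counts per gene, whole numbers without normalization. Of 53697 genes, 53668 had a symbol in the GRCm38 annotation used here (GENCODE release 21). The 8 genes, the gene lists and the motifs were chosen with earlier results of these data known. A further complement gene is not reported here and was left out of the list. Counts were analysed with edgeR 4.0.16 in R 4.3.3 (TMM, filterByExpr on Dll1 status, robust quasi-likelihood F test), with p values adjusted by Benjamini-Hochberg over 18322 genes at a threshold of 0.05. Over 4 mice the model held Dll1 status and mouse, as in the study's methods. A second fit gave the effect per reporter and their difference. A fit of 4 groups, with 2 mice each and no mouse term, gave the contrast of reporters. It took the 2 libraries of a mouse as independent, so the calls between reporters carry that limit. Log2 CPM used a prior count of 2.

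Libraries were paired by the mouse named in the labels; the deviations of same-mouse libraries correlated at -0.05 (PyMT-Dll1GFP) and 0.55 (PyMT-Dll1mCh). Named beyond the 8 genes were list members past the threshold in any of 6 comparisons, the 3 most abundant past it in none, Dll1, Epcam, Ptprc, Pecam1 and the 3 most similar genes each. Alternatives were RLE size factors, DESeq2 1.42.0, no filter, a minimum of 10 counts per library, models without the mouse, parts fitted alone, libraries left out, and a prior count of 0.5. For parts fitted alone and libraries left out the filter was rerun, so that the number of listed genes tested varied. The scripts were tested on simulated counts. Total counts were 27301396 to 123907626 per library, and 3 counts were 0.0240 to 0.105 CPM. Near-identical paralogs (C4a and C4b, Cd59a and Cd59b, C1ra and C1rb, C1s1 and C1s2) could share reads.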

Additional observations from a re-analysis of the deposited data

Results flagged for a closer look

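With 4 mice, a lone mouse is flagged by chance in about 1 of 20 groups. The Dll1+ minus Dll1- log2 difference of mouse 4 lay far from the other 3 mice for Cfb, at -1.738, and for A2m, at 1.211. The rule was applied to the 8 genes, the 28 other complement genes and the 2 tested genes of the alpha-2-macroglobulin family. Summed fibroblast markers differed by -2.65 in mouse 4, and their part in the values of Cfb and A2m was not tested.

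Genes whose difference was positive in both mice of one reporter and negative in both of the other were flagged as well, with the mean of PyMT-Dll1GFP minus that of PyMT-Dll1mCh mice given on the log2 scale. For Vtn it was 4.86 (adjusted p = 0.0538, edgeR), with 2 and 5 counts in the Dll1- libraries of mice 1 and 2. It was 3.095 for C1ra (adjusted p = 0.235, edgeR), 1.752 for C5ar1 (adjusted p = 0.141, edgeR) and 1.326 for C3ar1 (adjusted p = 0.150, edgeR). For Cfp it was 1.094 (adjusted p = 0.133, edgeR) and for Cr1l 0.2956 (adjusted p = 0.324, edgeR). None of these passed in edgeR. For Cfi it was 1.242, at 5 to 49 counts per library; no p is given because Cfi is among the chosen genes, and its difference was not tested.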

How the results depend on the processing

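Counts below are of the other complement genes past the threshold, then of all genes. Over 4 mice, 3 and 2568 genes passed; no filter gave 6, at least 10 counts in every library 5, DESeq2 9 and 4362, and no replicate block 6 and 1207. Leaving out a mouse gave 0 to 4 and 405 to 2400. In PyMT-Dll1GFP mice (3 and 1673), no filter gave 7 and 3001, no replicate block 1 and 274, and leaving out a mouse 0 to 4 and 2 to 2355. In PyMT-Dll1mCh mice (17 and 2154), no filter gave 3637 genes in all, no replicate block 4 and 212, the reporter fitted alone 0 and 0, and leaving out a mouse 8 to 19 and 905 to 1315. For the difference between reporters (0 and 13), no filter gave 11 and 1143, at least 10 counts 3 and 44, DESeq2 9 and 541, no replicate block 0 and 0, and leaving out a mouse 0 to 7 and 0 to 717. In Dll1- cells (20 and 6701) the contrast of reporters gave 4416 when fitted alone, and 14 to 20 and 2696 to 5844 with a library left out. In Dll1+ cells (8 and 5612) no filter gave 14, and leaving out a library 4 to 9 and 1084 to 3655. The causes were not tested. Values of the 8 genes moved by at least the SD of the gene's 4 paired Dll1+ minus Dll1- differences in 35 of 441 alternatives. That SD was used for all 6 comparisons. It is wide for C3 and Serping1 and does not measure the variation behind the contrasts of reporters, so a small share moved is not read as stability. Of the 8 genes, 4 passed over 4 mice and 1 to 3 with a mouse left out. For single listed genes past the threshold, 109 of 508 values lost it and 0 reversed. Reporter and mouse cannot be told apart.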
